A study of Homo sapiens with 11 samples.

Results

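The transcripts described here are those of the mitochondrial genome, taken as every gene whose symbol begins with MT-, which gave 37 of the 45965 genes in the table. They comprise 13 mRNAs, 2 rRNAs and 22 tRNAs. In the GENCODE 29 annotation of build hg38, 12 of the mRNAs, both rRNAs and 14 of the tRNAs lie on the plus strand of the mitochondrial chromosome, which holds the genes of the heavy strand transcripts. The mRNA of MT-ND6 and 8 tRNAs lie on the minus strand, the genes of the light strand transcripts. Estimated counts came from 3′ tag sequencing of 11 libraries. The cells were H1299, which derive from a human lung carcinoma and lack p53 of their own. All had received 5 µg of a p53 construct and then 14 days of neomycin (800 µg/ml), which left stable lines. The constructs carried p53 with the hotspot mutation R175H or R273H, each on the proline (P72) or arginine (R72) form of codon 72. R175H was represented by 3 libraries with P72 and 3 with R72, and R273H by 4 with P72 and 1 with R72. No library without mutant p53 was analysed here, so every comparison is between mutant forms. The promoter of the constructs, and whether a line is 1 clone or a pool, are not stated by the labels.

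The mitochondrial genome is transcribed in both directions into long RNAs that run through many genes. The tRNAs lie between the other genes and are cut out of these RNAs, which frees the mRNAs and rRNAs, and most of the mRNAs then receive a short poly(A) tail. Amounts of the products of one long RNA can still differ, since each is processed and degraded separately, and since the rRNAs are made in excess over the mRNAs downstream of them. The proteins are all subunits of the respiratory chain or of ATP synthase.

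Tailing also completes stop codons. The annotated length of 6 of the 13 mRNA genes is not a multiple of 3, and these genes end in T or TA, so that added A bases finish the stop codon. MT-CO3, with 784 nt, ends in T.

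The layout around the genes on which the results turn is shown by the sequences below, from the GENCODE 29 transcripts (hg38, chromosome M), each read 5′ to 3′ on its own strand. The first is shown because MT-ATP8 and MT-ATP6 overlap on the same strand by 46 bases, so that reads there belong to both genes. Capitals mark the shared bases in the stretch chrM:8497-8602 (plus strand).

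MT-ATP8 and MT-ATP6 junction: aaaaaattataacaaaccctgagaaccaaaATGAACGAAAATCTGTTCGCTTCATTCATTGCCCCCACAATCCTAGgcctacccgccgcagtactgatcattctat

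The next 3 are shown because these tRNAs directly adjoin the rRNAs. Capitals mark the tRNA gene, and the lower case letters are the 30 bases of the rRNA that touch it. The stretches are chrM:577-677, chrM:1572-1670 and chrM:3200-3304, all on the plus strand.

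MT-TF and MT-RNR1 junction: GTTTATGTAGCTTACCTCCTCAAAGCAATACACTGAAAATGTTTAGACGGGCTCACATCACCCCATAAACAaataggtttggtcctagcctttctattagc

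MT-RNR1 and MT-TV junction: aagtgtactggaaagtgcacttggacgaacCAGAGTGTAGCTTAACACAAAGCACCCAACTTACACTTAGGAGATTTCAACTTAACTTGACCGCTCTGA

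MT-RNR2 and MT-TL1 junction: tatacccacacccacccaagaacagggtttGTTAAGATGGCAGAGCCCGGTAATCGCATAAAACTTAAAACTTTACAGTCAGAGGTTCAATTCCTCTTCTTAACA

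The last pair come from the minus strand. MT-TE (capitals) runs straight into the first 30 bases of MT-ND6 at chrM:14644-14742, and MT-TP, all in capitals as a tRNA, lies at chrM:15956-16023.

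MT-TE and MT-ND6 junction: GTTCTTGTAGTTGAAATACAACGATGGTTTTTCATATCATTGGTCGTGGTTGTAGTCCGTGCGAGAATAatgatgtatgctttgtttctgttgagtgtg

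MT-TP: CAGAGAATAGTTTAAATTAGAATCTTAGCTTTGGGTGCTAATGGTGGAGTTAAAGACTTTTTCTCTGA

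Totals per library lay between 8346926 and 12829560 estimated counts. Levels are given as CPM, counts relative to the library total after TMM scaling, a method that sets libraries on a common scale. Batch b1 of the labels holds 4 libraries, replicates 2, 3 and 4 of R273H P72 and replicate 1 of R175H R72, and batch b2 the other 7. The lung carcinoma line was checked on 6 of its markers, of which 5 reached 10 CPM, among them KRT8 (241 to 300 CPM) and KRT18 (656 to 1043 CPM), while KRT7 stayed at 1.17 to 2.71 CPM. No marker of leukocytes, endothelium, fibroblasts or hepatocytes reached 10 CPM. The sum of the fibroblast markers had the highest value of these lists, 6.8 CPM in an R273H P72 library.

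Nothing in the labels tells whether replicates came from separate cultures. The p-values therefore reflect the spread of the libraries at hand, part of which may be technical. Fold changes are on the log2 scale, from edgeR's quasi-likelihood fit with batch as a term. Their standard error (SE) is the absolute change divided by the square root of the F statistic of edgeR's quasi-likelihood test. Adjusted p is that test's p after Benjamini-Hochberg adjustment over all 16324 genes tested. A gene counts as called at an adjusted p under 0.05. Of the 37 members, 34 passed the filter on low counts, and the other 3, all tRNAs, had at most 8 (MT-TS1), 9 (MT-TD) and 5 (MT-TG) counts in any library.

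Mitochondrial transcripts took between 4.03% and 5.52% of all counts. Their share was 4.25% ± 0.215 (SD, n = 3) in R175H P72, 4.82% ± 0.53 (SD, n = 3) in R175H R72 and 4.5% ± 0.2 (SD, n = 4) in R273H P72. The single R273H R72 library had 5.52% (95% Wilson interval 5.51% to 5.54%, which covers counting error only). The first 3 of these groups overlapped. The share in R175H R72 exceeded that in R175H P72 by 0.571 percentage points (exact two-sided permutation p = 0.3), and that in R273H P72 exceeded it by 0.249 points (exact two-sided permutation p = 0.257). Within batch b2 these differences were 0.869 points (2 against 3 libraries) and 0.0203 points (1 against 3). In bulk libraries the number of mitochondrial genomes per sample and the RNA made from each cannot be told apart.

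Among the mRNAs the highest level per kb of gene was that of MT-CO3, a cytochrome c oxidase subunit, with a mean of 12129 CPM per kb over the 11 libraries. MT-ND3, a complex I subunit, followed with 6452 and MT-CO2 with 5406 CPM per kb. MT-ND5, another complex I subunit, was lowest with 232 CPM per kb, below MT-ND6 with 342. The rRNAs stood at 6743 CPM per kb for MT-RNR2, of the large ribosomal subunit, and 6425 for MT-RNR1, of the small one. Reads of a 3′ tag library need not grow with gene length, so this order describes the libraries rather than molecules per cell.

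The tRNA genes held between 3.38% and 5.29% of the mitochondrial counts. MT-TL1, the leucine tRNA that follows MT-RNR2, made up most of them, with 59.2% ± 3.04 (SD, n = 3) of the tRNA counts in R175H P72 and 56.8% ± 4.14 (SD, n = 4) in R273H P72. The genes of 65 to 75 nt that encode tRNAs (59 nt for MT-TS2) are about as long as the 75 bp reads, and reads on them can stem from tRNA or from uncut RNA that spans it. This limit holds for each tRNA value that follows.

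On the P72 form, R273H and R175H cells were compared with 4 and 3 libraries. The mRNAs MT-ND6, MT-ATP8, MT-ATP6, MT-ND5, MT-CO3 and MT-CYB were higher in R273H. The rRNA MT-RNR1 and the tRNAs MT-TV and MT-TL1 were lower. This made 9 of 34 tested members called, against 14.6% of all genes tested. The 6 higher members stand beside 6.95% of all genes and the 3 lower ones beside 7.6%. All 13 mRNAs had a positive fold change, with a median of 0.37, where the median of all genes was 0.00 and 50.3% of them were positive. The 12 heavy strand mRNAs come from shared long RNAs, so here and below their signs need not be separate results. At an unadjusted p under 0.05 there were 17 members, against 27.8% of all genes.

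MT-ND6, the complex I subunit encoded on the other strand from the remaining mRNAs, had the highest fold change of all members. It stood at 118, 104 and 98.3 CPM in R175H P72 replicates 1, 2 and 4, and at 311, 310, 249 and 179 CPM in R273H P72 replicates 1 to 4. All 4 R273H libraries were above all 3 R175H libraries, and replicate 4 was the lowest of its group. The fold change was 1.74 (SE 0.29, adjusted p = 0.00833), or 3.34-fold. These are 3′ tag counts, and how far they reflect the amount of MT-ND6 RNA was not tested. The group means were 107 ± 10.2 (SD, n = 3) and 262 ± 63 (SD, n = 4) CPM, whose difference without a batch term was 1.30 (adjusted p = 0.021).

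MT-ND6 also took a higher share of the mitochondrial mRNA counts, 0.449% ± 0.0396 (SD, n = 3) in R175H P72 against 0.913% ± 0.208 (SD, n = 4) in R273H P72. The groups did not overlap (exact two-sided permutation p = 0.0571, adjusted p = 0.137 over the 12 tests of shares). These tests of shares take no account of batch. Within batch b2 the difference was 0.678 percentage points, with 1 R273H P72 library. The gene lies opposite RNA transcribed from the heavy strand. The sources used here do not tell if counting took strand into account. If it did not, reads from the opposite strand cannot be told apart from those of MT-ND6.

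MT-ATP8 and MT-ATP6 encode 2 subunits of ATP synthase and are carried on one mRNA. MT-ATP8 stood at 259, 233 and 207 CPM in R175H P72 and at 419, 501, 407 and 374 CPM in R273H P72, a fold change of 1.19 (SE 0.26, adjusted p = 0.02). MT-ATP6 stood at 1229, 1193 and 1284 CPM against 1548, 1806, 1635 and 1663 CPM, a fold change of 0.62 (SE 0.16, adjusted p = 0.0142). In both genes the lowest R273H P72 library was above the highest R175H P72 library.

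Of the counts on these 2 genes, MT-ATP8 held 15.9% ± 1.81 (SD, n = 3) in R175H P72 and 20.3% ± 1.52 (SD, n = 4) in R273H P72, without overlap (exact two-sided permutation p = 0.0571, adjusted p = 0.137, and 5.45 points within batch b2). This share was chosen after seeing the data. Reads in the 46 shared bases were divided between the genes by the authors' estimation, and how they were divided is not recorded.

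MT-CO3 stood at 8058, 7329 and 8632 CPM in R175H P72 and at 9916, 10709, 10108 and 9428 CPM in R273H P72, again without overlap. Its fold change was 0.49 (SE 0.12, adjusted p = 0.009). MT-ND5 stood at 348, 301 and 339 CPM against 415, 526, 463 and 413 CPM, and its fold change was 0.58 (SE 0.16, adjusted p = 0.0239). MT-CYB, the cytochrome b of complex III, stood at 961, 918 and 1053 CPM against 1197, 1006, 1124 and 1137 CPM. Here the groups overlapped, since R273H P72 replicate 2 was below R175H P72 replicate 4. The fitted change of MT-CYB was 0.49 (SE 0.12, adjusted p = 0.00954).

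The other 7 mRNAs did not pass the test. Those of MT-ND1 (0.37, adjusted p = 0.0536) and MT-ND4 (0.35, adjusted p = 0.0523) were nearest to it. MT-ND3 had 0.29, MT-CO2 0.26, MT-ND2 0.25 and MT-CO1 0.22. MT-ND4L, which overlaps the start of MT-ND4 by 7 bases, had a fold change of 0.01. It stood at 257, 256 and 281 CPM in R175H P72 and at 251, 252, 275 and 272 CPM in R273H P72, so the groups overlapped fully.

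MT-RNR1, the rRNA of the small ribosomal subunit, had lower counts in R273H. It stood at 7988, 6086 and 6463 CPM in R175H P72 and at 3559, 4623, 4968 and 5279 CPM in R273H P72. All R273H P72 libraries were below all R175H P72 libraries, with replicate 1, the one in the batch of the R175H P72 libraries, the lowest. The fold change was -0.91 (SE 0.12, adjusted p = 6.35e-05), or 1.88-fold lower. All rRNA values here and below are 3′ tag counts, and how far they reflect the amounts of rRNA was not tested.

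MT-RNR2, the other rRNA, stood at 10404, 9495 and 10152 CPM in R175H P72 and at 9805, 11301, 10181 and 9667 CPM in R273H P72. These groups overlapped and the fold change was 0.11 (SE 0.12, adjusted p = 0.587). MT-RNR1 thus held 40.5% ± 2.57 (SD, n = 3) of the rRNA counts in R175H P72 and 30.9% ± 3.87 (SD, n = 4) in R273H P72, a share also chosen after seeing the data (exact two-sided permutation p = 0.0571, adjusted p = 0.137, and -13.8 points within batch b2). The table also holds 11 nuclear genes that resemble MT-RNR2. They had 121 to 212 counts together per library, beside 80900 to 126076 for MT-RNR2 itself.

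The tRNAs on either side of MT-RNR1 were lower too. MT-TV, the valine tRNA between the rRNAs, stood at 73.6, 80.3 and 95.7 CPM in R175H P72 and at 48, 45, 58.3 and 54.1 CPM in R273H P72, with a fold change of -0.72 (SE 0.14, adjusted p = 0.00235). MT-TF, the phenylalanine tRNA before MT-RNR1, stood at 6.15, 8.43 and 7.8 CPM against 3.97, 5.98, 6.11 and 5.5 CPM. Its groups did not overlap, but its change of -0.68 (SE 0.25) missed the threshold (adjusted p = 0.0687).

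MT-TL1, the leucine tRNA behind MT-RNR2, stood at 1221, 1237 and 1429 CPM in R175H P72 and at 936, 824, 1128 and 1034 CPM in R273H P72. It did not overlap either, with a fold change of -0.42 (SE 0.12, adjusted p = 0.0266). From MT-TF to MT-TL1, 4 of the 5 genes in a row were lower in every R273H P72 library than in every R175H P72 library. MT-RNR2 was the exception. The tRNAs MT-TI, MT-TN and MT-TC, which lie outside this row of genes, were also lower in R273H P72 without overlap. Over all members, 8 of 34 had groups that did not overlap with R273H higher, against 14% of all genes, and 7 of 34 with R273H lower, against 14.1%. Among the 8, MT-TL2 had only 3 counts in each R175H P72 library and 3 to 4 in the R273H P72 libraries.

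**Figure D1:**
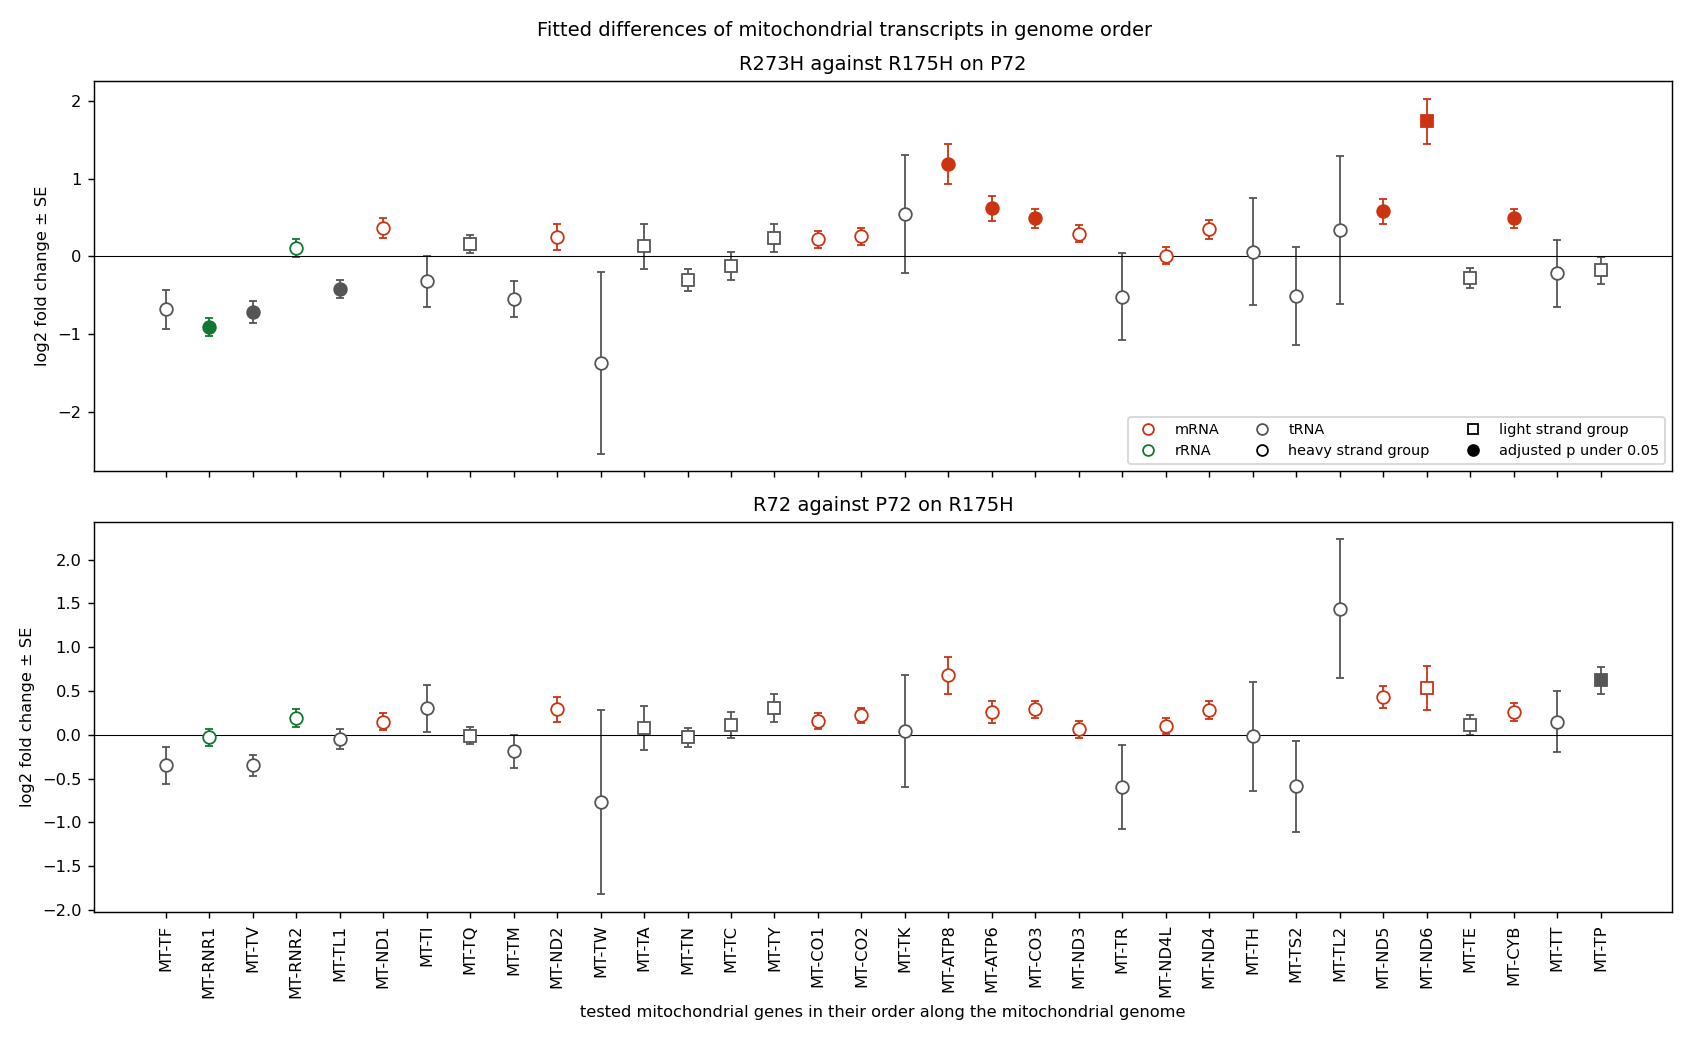
Log2 fold change ± SE (vertical axes) of the 34 tested mitochondrial genes in their order along the genome, for R273H against R175H on P72 (top) and R72 against P72 on R175H (bottom). Colour gives the class of RNA, squares mark light strand genes and filled symbols an adjusted p under 0.05. In the top panel the filled symbols at the left end (MT-RNR1, MT-TV, MT-TL1) lie below 0 and all filled mRNA symbols above it, with MT-ND6 highest at 1.74.

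The light strand tRNAs showed no call in this comparison, with fold changes of -0.30 to 0.24 in the 7 that were tested. MT-TE, the glutamate tRNA that is cut from the same RNA directly before MT-ND6, had -0.28 (SE 0.13, adjusted p = 0.164) where MT-ND6 had 1.74. MT-TN, the asparagine tRNA, had -0.30 (adjusted p = 0.162). The 12 heavy strand tRNAs ran from -1.37 (MT-TW, at most 9 counts in any library) to 0.55 (MT-TK, at most 12 counts), with a median of -0.47. The share of the strand as a whole overlapped between the groups. All light strand genes together held 2% ± 0.136 (SD, n = 3) of the mitochondrial counts in R175H P72 and 2.01% ± 0.193 (SD, n = 4) in R273H P72.

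By class, rRNAs made up 40.9%, 38.6% and 38.5% of the mitochondrial counts in the R175H P72 libraries and 31.4%, 33.3%, 32.5% and 34% in the R273H P72 libraries. The groups were apart by 6.52 percentage points. The exact two-sided permutation p was 0.0286, the smallest that 4 against 3 libraries allow, and the adjusted p was 0.137. Within batch b2, 1 library against 3, the difference was -7.97 points. The share of tRNAs was 5.11% ± 0.286 (SD, n = 3) against 3.81% ± 0.336 (SD, n = 4), with the same p-values by the same exact test and a difference of -1.32 points within batch b2. The remainder, mRNA, was 55.6% ± 1.05 (SD, n = 3) against 63.4% ± 1.13 (SD, n = 4).

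**Figure D2:**
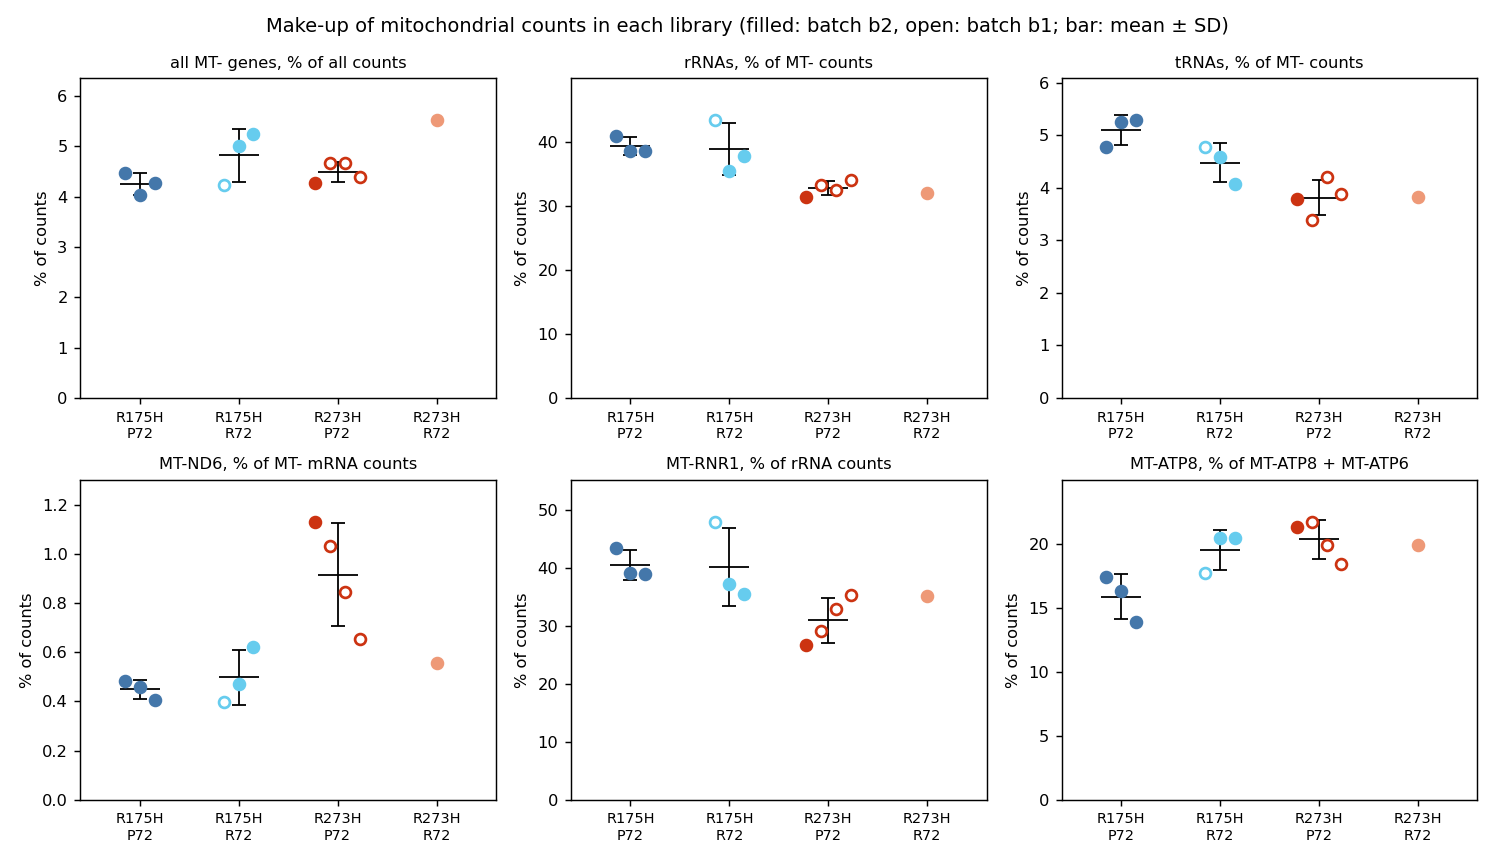
Shares of counts in percent (vertical axes, from 0) in each library, by group. Points are libraries, filled for batch b2 and open for b1, and bars give the mean ± SD where a group has more than 1 library. The 4 R273H P72 libraries lie at 31.4% to 34% for rRNAs, all below the R175H P72 libraries, and at 0.655% to 1.13% for MT-ND6, all above them.

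Batch weighs on these values, since all R175H P72 libraries are in b2 and 3 of the 4 R273H P72 libraries in b1. Within batch b2 alone, R273H P72 is replicate 1 by itself and is assumed to vary like the other groups. There MT-ND6 had a fold change of 1.54, MT-ATP8 0.85, MT-RNR1 -0.95, MT-TV -0.80 and MT-TN -0.48. MT-ATP6 (0.32), MT-CO3 (0.31), MT-CYB (0.29), MT-ND5 (0.33) and MT-TL1 (-0.47) did not pass the test there. Without a batch term MT-CO3 (0.33) and MT-CYB (0.19) were not called, and MT-RNR1 had -0.57.

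Single libraries also shifted the calls. Without R175H R72 replicate 1, a b1 library outside the comparison, 5 members and 1214 of 16281 genes were called. Batch b1 then holds R273H P72 libraries only, so this contrast rests on R273H P72 replicate 1 alone and repeats that within batch b2. Without R273H P72 replicate 1, 13 members were called (12 mRNAs and MT-RNR1), among 1253 of 16234 genes. R273H P72 then lies in b1 only, and the batch term rests on R175H R72 replicate 1 against replicates 2 and 4. MT-ATP6 then had 1.13, MT-ATP8 1.80, MT-CO3 0.82, MT-CYB 0.84 and MT-ND5 1.01, while MT-TV (-0.59) and MT-TL1 (-0.33) lost their call. Without R175H P72 replicate 2 it was 6, among 1612 of 16218 genes, as MT-ATP8, MT-ATP6 and MT-ND5 were no longer called. MT-ATP8 was not called without R175H P72 replicate 4 either, nor were MT-ND5 and MT-TL1, and MT-ND5 was lost without R175H R72 replicate 2. MT-RNR1 and MT-ND6 were called with any library left out, the 1-library contrast included, MT-RNR1 at -0.99 to -0.78 and MT-ND6 at 1.55 to 2.12. MT-ND6 missed the threshold only with the replicate number as a block (1.72, adjusted p = 0.0525).

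**Figure D3:**
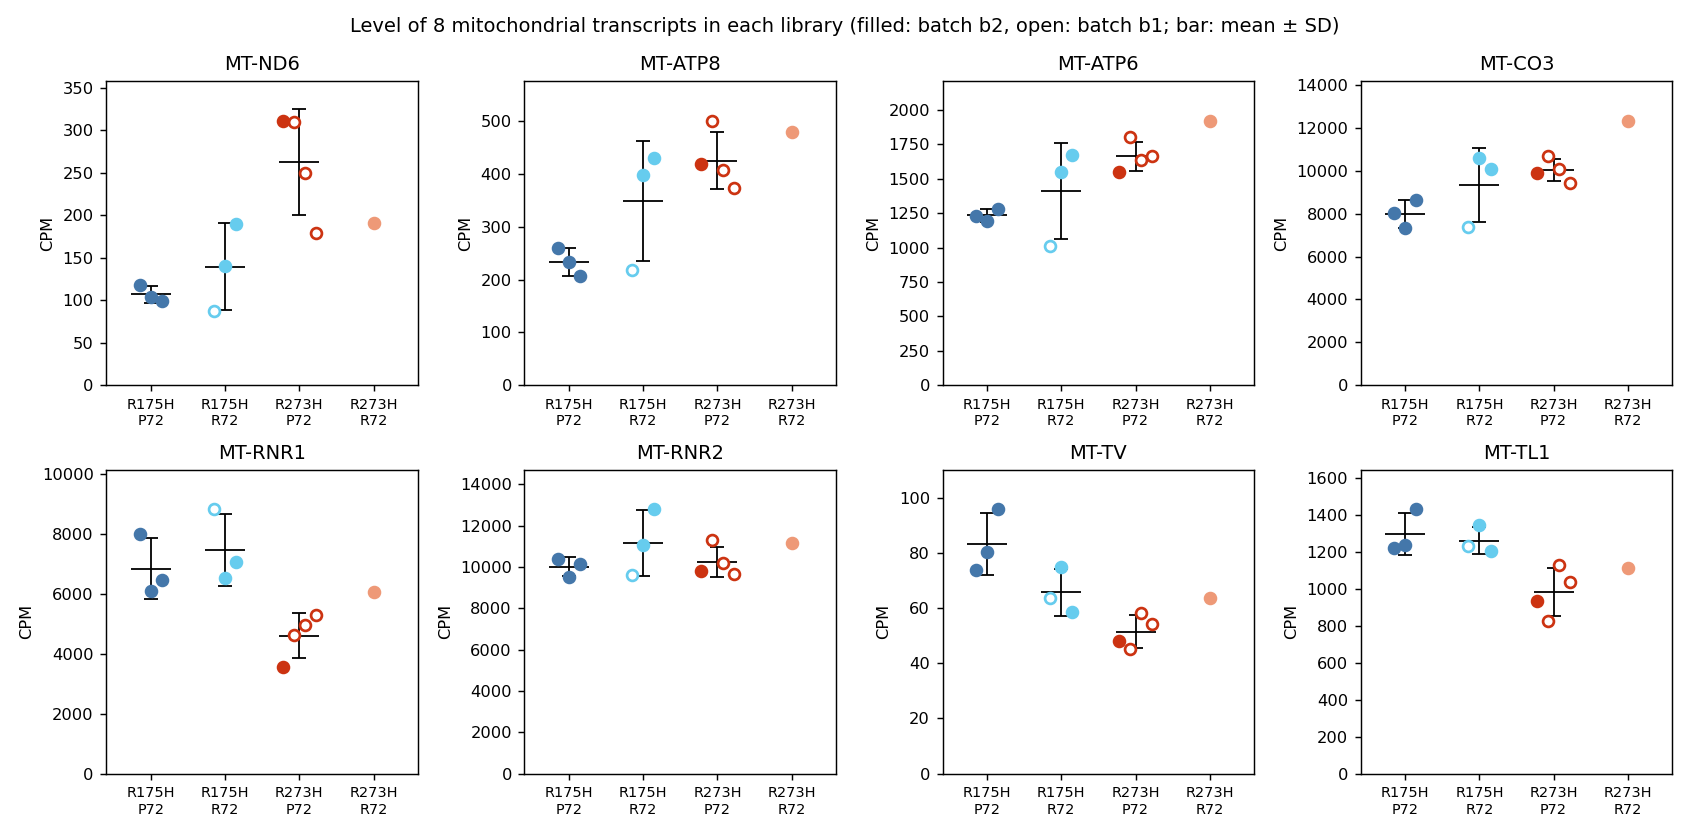
CPM (vertical axes, from 0) of 8 mitochondrial transcripts in each library, by group. Points are libraries, filled for batch b2 and open for b1, and bars give the mean ± SD. In MT-ND6 the R273H P72 libraries lie at 179 to 311 CPM, above the R175H P72 libraries at 98.3 to 118, and in MT-RNR1 they lie below them, while in MT-RNR2 the groups overlap.

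On R175H, the change from P72 to R72 left most mitochondrial transcripts short of the threshold. The proline tRNA MT-TP was the single member called of 34, against 1.13% of all genes tested and 0.319% called higher. It stood at 14.4, 19.8 and 15.3 CPM in R175H P72 and at 25.6, 26.1 and 25 CPM in R175H R72. The groups did not overlap, which held for this member alone with R72 higher and for none with R72 lower, against 6.81% and 6.15% of all genes. The fold change of MT-TP was 0.62 (SE 0.15, adjusted p = 0.0399). With 143 to 259 counts per library here it is one of the lesser members.

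The MT-TP call depended on the fit. It was lost without a batch term (0.63, adjusted p = 0.281), within batch b2 (0.63, adjusted p = 0.0629), with the replicate block (0.62, adjusted p = 0.0644) and with a correction for GC content (0.52, adjusted p = 0.143). Leaving out R175H P72 replicate 1 or 4, R175H R72 replicate 2 or 4, or R273H P72 replicate 3 or 4 also ended it, with adjusted p of 0.0574 to 0.314 by edgeR's quasi-likelihood test.

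The 13 mRNAs all had a positive fold change with R72 on R175H, from 0.06 (MT-ND3) to 0.68 (MT-ATP8), with a median of 0.26 beside -0.00 over all genes, of which 49.9% were positive. None was called. At an unadjusted p under 0.05 there were 6 of them (all genes: 13.6%), and DESeq2 called 1, MT-ND5. MT-ATP8 stood at 218, 398 and 430 CPM in R175H R72 replicates 1, 2 and 4 (SE of its change 0.21, adjusted p = 0.214). MT-ND6 stood at 87.3, 140 and 190 CPM, with a change of 0.53 (SE 0.25, adjusted p = 0.42). In both genes replicate 1, the b1 library, lay with or below R175H P72 and the b2 libraries above it.

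Replicate 1 of R175H R72 was the lowest of all 11 libraries for 7 of the 13 mRNAs, and had the highest rRNA share, 43.4%, beside 35.5% and 37.8% in replicates 2 and 4. Without it 7 members were called higher with R72, which are MT-TP, MT-ND4, MT-ND5, MT-CO3, MT-CYB, MT-ATP8 and MT-ATP6. In that fit 268 of 16281 genes were called, 91 of them higher. Leaving out R273H P72 replicate 1 called the same 7, which is no second result: R175H R72 replicate 1 then only sets the batch term, so that both fits compare R175H R72 replicates 2 and 4 with P72. In batch b2 alone 3 members were called, beside 136 of 16098 genes, 35 of them higher. These members were MT-ATP8 (0.83, adjusted p = 0.000337), MT-ND5 (0.54, adjusted p = 0.0109) and MT-ND6 (0.63, adjusted p = 0.0231). What sets replicate 1 apart from the others of its group was not tested, and as the sole b1 library of that group it cannot be told apart from batch.

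The rRNAs did not pass the test on R175H. MT-RNR1 stood at 8819, 6523 and 7052 CPM in R175H R72, a change of -0.03 (SE 0.10), and MT-RNR2 at 9600, 11072 and 12789 CPM, a change of 0.19 (SE 0.10, adjusted p = 0.433). The rRNA share of mitochondrial counts was 38.9% ± 4.08 (SD, n = 3), beside 39.3% ± 1.34 (SD, n = 3) with P72 (exact two-sided permutation p = 0.8). The tRNA share was 4.48% ± 0.368 beside 5.11% ± 0.286 (SD, n = 3 each, exact two-sided permutation p = 0.2). The share of MT-ATP8 in the pair with MT-ATP6 was 19.5% ± 1.56 beside 15.9% ± 1.81 (SD, n = 3 each) and its groups did not overlap (exact two-sided permutation p = 0.1, the smallest that 3 against 3 allow, adjusted p = 0.2).

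On R273H, R72 was measured in 1 library, R273H R72 replicate 3 (batch b2), which is assumed to vary like the other groups. No member was called and no gene of the table was (0%). At an unadjusted p under 0.05 there were 4 members, against 7.75% of all genes, and DESeq2 called 1, MT-RNR1. In that library MT-RNR1 was at 6068 CPM, above each of the R273H P72 libraries, with a fold change of 0.73 (SE 0.15, adjusted p = 0.119, and 0.00064 in DESeq2). MT-ND6 was at 191 CPM, above R273H P72 replicate 4 and below the other 3, with a fold change of -0.90 (SE 0.38, adjusted p = 0.644).

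This library had the highest level of all 11 for 9 of the 13 mRNAs. MT-CO3 reached 12347 CPM, MT-ND3 2814 CPM and MT-ND4L 365 CPM, the last with a change of 0.45 (SE 0.13, adjusted p = 0.312). MT-ATP8 was at 479 CPM, within the range of R273H P72. Its rRNA share was 32% (95% Wilson interval 31.9% to 32.1%) and its share of MT-ND6 in mRNA counts 0.554% (95% Wilson interval 0.531% to 0.579%), the latter below all R273H P72 libraries. MT-TP was at 16.9 CPM, inside the R273H P72 range of 13.4 to 17.9.

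Between the hotspots on R72, with the same single library against 3, none of the 34 members was called, against 0.0429% of all genes (0.00613% higher and 0.0368% lower). At an unadjusted p under 0.05 there were 5 members, against 4.62% of all genes, and DESeq2 called none. MT-ND6 had a change of 0.31 (SE 0.33), MT-RNR1 of -0.14 (SE 0.14), MT-ATP8 of 0.36 (SE 0.29) and MT-TP of -0.59 (SE 0.21, unadjusted p = 0.00933). All 13 mRNAs were positive here, from 0.09 (MT-ND1) to 0.40 (MT-ND3), where 49.2% of all genes were. These signs rest on the single R273H R72 library, which had the highest level of any library for 9 of the 13.

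The test of whether the effect of R72 differed between R273H and R175H called no member, against 0.0306% of all genes (0.0123% higher and 0.0184% lower), and 4 members had an unadjusted p under 0.05, against 10.2% of all genes. The difference was positive for 2 of the 13 mRNAs and for 49.5% of all genes. The largest differences in absolute size among the mRNAs and rRNAs were those of MT-ND6, -1.43 (SE 0.48, adjusted p = 0.385), MT-ATP8, -0.83 (SE 0.42, adjusted p = 0.561), and MT-RNR1, 0.76 (SE 0.19, adjusted p = 0.169). DESeq2 called MT-RNR1 (0.75, adjusted p = 0.0122). Without R273H P72 replicate 1 MT-ATP8 was called in edgeR's test (-1.60, adjusted p = 0.0229). These comparisons share libraries with those above.

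**Figure D4:**
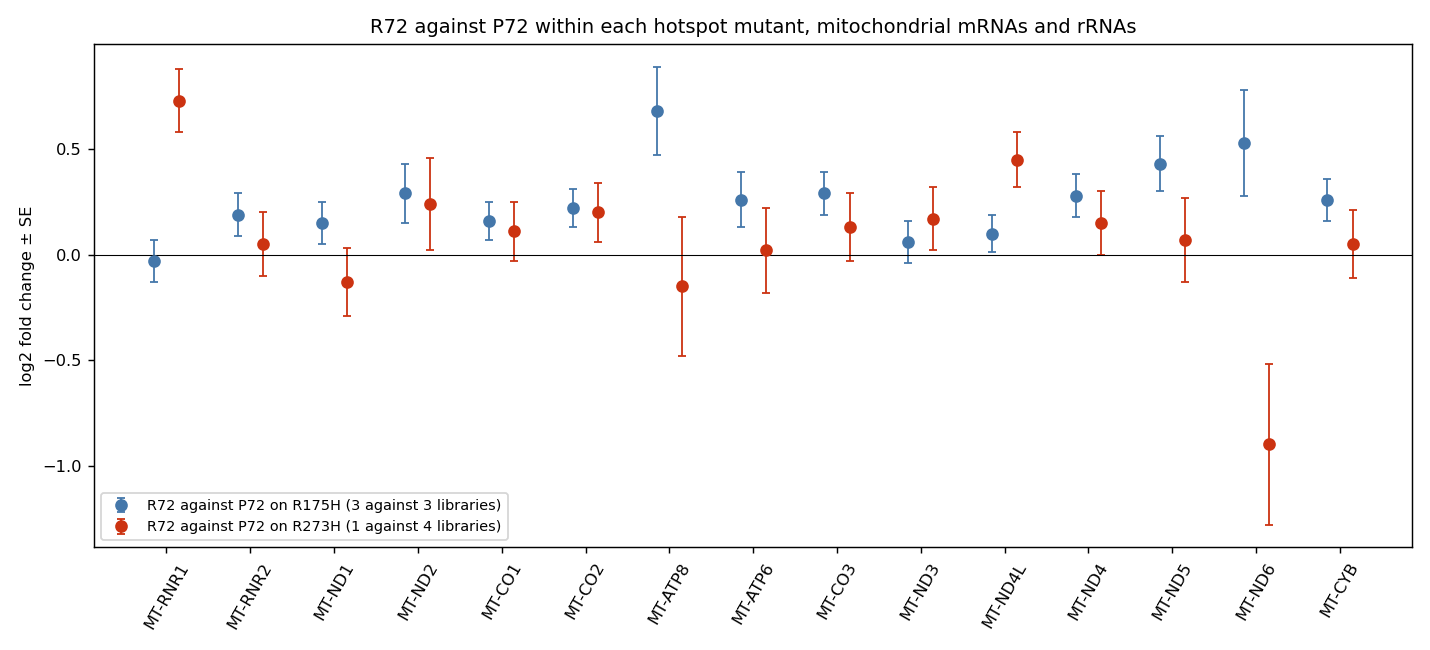
Log2 fold change ± SE (vertical axis) of R72 against P72 for the rRNAs and mRNAs, on R175H (blue, 3 against 3 libraries) and R273H (red, 1 against 4). The pairs lie farthest apart in MT-ND6 (0.53 and -0.90), MT-ATP8 (0.68 and -0.15) and MT-RNR1 (-0.03 and 0.73), and none of these differences passed the adjusted threshold.

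The nuclear genes that make, cut, tail and degrade mitochondrial RNA were read from a list of 41 that were all tested. The list also held genes of mitochondrial DNA replication, such as POLG2, and of the mitochondrial ribosome, such as PTCD3. Between the hotspots on P72, 3 were higher and 4 lower in R273H, beside 6.95% and 7.6% of all genes tested, and the median of the list was 0.06, beside 0.00. DESeq2 called 5 of the 41 in this comparison, beside 2145 of 16324 genes, and limma-voom called 7, beside 2374. The share called in the list is near that of all genes, and the values below describe single genes. The fitted changes include the batch term and can be larger or smaller than the differences of the group means. LRPPRC, an RNA-binding protein that stabilises mitochondrial mRNAs, fell by 0.30 (adjusted p = 0.0312), with 203 ± 6.04 (SD, n = 3) CPM in R175H and 158 ± 7.92 (SD, n = 4) in R273H. SLIRP, its binding partner, rose by 0.32 in the fit (adjusted p = 0.0404), with 485 ± 52.5 (SD, n = 3) and 522 ± 39.4 (SD, n = 4) CPM, less than 1 SD apart.

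FASTK, of a family of mitochondrial RNA-binding proteins, fell by 0.36 (adjusted p = 0.0246), with 365 ± 37.9 (SD, n = 3) and 309 ± 27.6 (SD, n = 4) CPM. HSD17B10, a subunit of the RNase P that cuts the 5′ ends of mitochondrial tRNAs, fell by 0.35 in the fit (adjusted p = 0.0332), with 83.5 ± 8.45 (SD, n = 3) and 77.6 ± 6.97 (SD, n = 4) CPM, again less than 1 SD apart. PTCD1, a protein bound to leucine tRNAs, fell by 0.46 (adjusted p = 0.0472), with 16.9 ± 0.245 (SD, n = 3) and 14.2 ± 1.84 (SD, n = 4) CPM. PTCD3, of the small ribosomal subunit, rose by 0.32 (adjusted p = 0.0469), with 77.9 ± 7.24 (SD, n = 3) and 92.7 ± 7 (SD, n = 4) CPM. POLG2, the accessory subunit of the mitochondrial DNA polymerase, rose by 0.57 in the fit (adjusted p = 0.0437), though its mean was 10.2 ± 1.43 (SD, n = 3) CPM in R175H and 9.72 ± 4.62 (SD, n = 4) in R273H.

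The RNA polymerase POLRMT had -0.32 (adjusted p = 0.123) and its cofactors TFAM 0.18 (adjusted p = 0.334) and TFB2M -0.01 (adjusted p = 0.974). The means in R175H P72 (SD, n = 3) and R273H P72 (SD, n = 4) were 25.6 ± 2.22 and 24.1 ± 3.08 CPM for POLRMT. They were 131 ± 16.1 and 132 ± 11.9 CPM for TFAM, and 12.6 ± 1.9 and 7.85 ± 3.41 CPM for TFB2M. The mean of TFB2M was thus lower in R273H P72, though the fit with batch gave almost no change. MTPAP, the poly(A) polymerase, had 0.26 (adjusted p = 0.28). In the other 4 comparisons none of the 41 was called by edgeR or DESeq2, with 4, 2, 1 and 2 of them at an unadjusted p under 0.05 for R72 on R175H, R72 on R273H, the hotspots on R72 and the difference of the R72 effects. Over all genes these shares were 13.6%, 7.75%, 4.62% and 10.2%. The smallest p was that of POLG2 for R72 on R175H (0.46, adjusted p = 0.217), GRSF1 for R72 on R273H (-0.30, adjusted p = 0.566), POLRMT for the hotspots on R72 (-0.37) and PTCD1 for the difference of the R72 effects (0.69, adjusted p = 0.333).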

How the data were processed

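The deposited values are estimated counts per gene, whole numbers as deposited by the authors. Libraries came from the Lexogen QuantSeq 3′ kit and were read once over 75 bp, per the labels' protocols. Per the submitters' processing notes, the tools were Bowtie2, RSEM 1.2.12 and DESeq2, on hg38, with no order or settings given. RSEM shares out reads with several matches, which bears on overlapping genes and on nuclear copies of mitochondrial genes.

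The low-count filter was filterByExpr (4 groups, a count of at least 10 and a total of at least 15). Scaling used TMM, and the model was edgeR 4.0.16 (R 4.3.3), robust quasi-likelihood, of group and batch over all 11 libraries. The difference of R72 effects is a contrast of the same fit. Shares were compared by exact permutation, adjusted over 12 tests. Positions and sequences came from GENCODE 29. The scripts were tested on simulated data. Alternatives were RLE scaling, library totals, scaling without mitochondrial genes, no filter, a filter at 10 CPM in 3 libraries, DESeq2 1.42.0, limma-voom (limma 3.58.1), no batch term, a replicate block, a GC correction (last 500 nt, spline with 5 degrees of freedom), batch b2 alone and each library left out.

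The members and lists were chosen with earlier results of these data known. Values per library are given for members called in any comparison, the rRNAs, MT-ND6, MT-ATP8 and MT-ND4L, and of the list of nuclear genes the called and the smallest p are named. MT-TF, POLRMT's cofactors and MTPAP were named after their values were seen.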

Additional observations from a re-analysis of the deposited data

Results flagged for a closer look

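One value stood apart in a group of 4. MT-TI, the isoleucine tRNA, was at 1.52 CPM in R273H P72 replicate 2, beside 3.34, 3.38 and 3.69 CPM in the other libraries of the group. The gap to the nearest of them, divided by the range of the group, was 0.84, above Dixon's 95% critical value of 0.829. Of the values tested this way (40 in R273H P72) about 1 in 20 passes by chance. The gene had 13 to 59 counts per library and was not called in any comparison.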

How the results depend on the processing

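Between the hotspots on P72, 9 mitochondrial genes were called, 5 within batch b2 alone, and 5 to 13 with a library left out. MT-RNR1 was called in all 11 alternative settings and whichever of the 11 libraries was dropped, though without R175H R72 replicate 1 that fit repeats the one within batch b2. With R72 on R175H, 1 was called, against 3 with no filter, 2 in DESeq2, 0 without a batch term, 0 with the replicate block, 0 with the GC correction, 3 in batch b2 alone and 0 to 7 with a library left out. With R72 on R273H, 0 were called, and 1 each with no filter and in DESeq2. For the difference of the R72 effects, 0 were called, 1 each with no filter and in DESeq2, and 0 to 1 with a library left out. Causes of these changes in calls were not tested. Some settings also held fewer libraries.

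Signs turned for values near 0. MT-ATP8 with R72 on R273H went from -0.15 to 0.17 without a batch term and 0.19 in batch b2, and ranged from -0.77 to 0.19 with a library left out. MT-RNR1 with R72 on R175H went from -0.03 to 0.12 without a batch term and ranged from -0.11 to 0.10. With R72 on R175H the difference in rRNA share ranged from -2.68 to 1.28 points with a library left out, in MT-ND6 share from -0.0138 to 0.0979, and in MT-RNR1 share from -4.16 to 2.01.

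Same-numbered R175H libraries correlated at 0.01, -0.04 and 0.26 in their deviations from group means. Same-numbered P72 libraries of the hotspots correlated at -0.10, -0.16 and 0.08. The deviations were not corrected for batch, so these values cannot show whether the replicate numbers pair the libraries. With the number as a block the hotspot comparison on P72 still had 9 members called, beside 1776 of 16324 genes. MT-ND6 (1.72, adjusted p = 0.0525) was not among them, while MT-TM (-0.63, adjusted p = 0.0359), the methionine tRNA, was.

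Over all genes, calls with R72 on R175H numbered 185, and 333 in DESeq2, 564 with no filter and 136 in batch b2 alone. They numbered 56 with the GC correction, 81 with the block and 6 without a batch term. With a library left out they ranged from 24 (without R175H R72 replicate 2) to 272 (without R273H P72 replicate 1). Among these were 52 without R175H P72 replicate 2 and 108 without R273H P72 replicate 3. Between the hotspots on P72 they numbered 2376, 866 in batch b2 and 1214 to 2463 with a library left out. With R72 on R273H they numbered 0, against 112 in DESeq2, 137 with no filter and 0 to 6 with a library left out. For the difference of the R72 effects they numbered 5, against 138, 196 and 0 to 48 (the latter without R273H P72 replicate 1). Between the hotspots on R72 there were 7, against 14, 16 and 3 to 9. The GC correction covered 16029 of the 16324 genes. Depth limits members with few counts: between the hotspots on P72, MT-TW, with at most 9 counts in a library, had an SE of 1.17.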
